A study of Caenorhabditis elegans with 12 samples.

Results

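Y6G8.13, Y6G8.14, Y6G8.15 and Y6G8.16 are small neighbouring genes on chromosome V of the nematode Caenorhabditis elegans. They are 4 of the 46903 entries in the count table of the y54g2a.18 experiment, and they were chosen by their counts in this comparison, which were close to 0 after y54g2a.18 RNAi. Their difference between the groups is therefore given as a description, with no test. Whole worms of the wild-type N2 genotype had received either RNAi against y54g2a.18 or a control RNAi, and polyadenylated RNA of 3 libraries per group was counted by gene. RNAi lowers the transcript of a chosen gene through double-stranded RNA, and y54g2a.18 is the worm homologue of the endoplasmic reticulum membrane protein gene BCAP31, studied here for its influence on ageing. The age of the worms and the way the RNAi was given are not stated in the sources used here. The labels do not tell whether libraries of the same group were grown apart, so each p-value reflects the spread among these libraries alone, and that spread may be technical. The other 6 of the 12 libraries, after rpoa-49 RNAi and its control, add nothing on these genes: their table carries human-style gene names and 0 entries of the Y6G8 series.

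A name such as Y6G8.13 is a sequence name, given to a gene by the genomic clone it was found on and its number on that clone, and kept where no function has earned the gene a symbol. No role is known here for the 4 genes. The arms of worm chromosomes, and chromosome V above all, carry many clustered families of similar genes that arose by local duplication, among them chemoreceptors, F-box proteins and C-type lectins. The surroundings of the Y6G8 genes are of this kind. The gene srz-91, which lies among them, belongs to the srz family of candidate chemoreceptors, and on both sides lie fbxa genes, whose F-box proteins bring substrates to ubiquitin ligases. Such clusters often contain pseudogenes, copies that have lost an intact reading frame.

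In the Ensembl annotation of assembly WBcel235 the 4 genes lie within 8 kb, in the order Y6G8.16, Y6G8.15, Y6G8.13 and Y6G8.14. The assembly behind the authors' counts is not stated in the sources used here, so that annotation is used for order, strand and gene models, and no coordinates are given. The pseudogene Y6G8.11 and srz-91 lie between Y6G8.16 and Y6G8.15, in a gap of 3020 bases. Y6G8.13 follows Y6G8.15 after 1374 bases, and Y6G8.14 follows Y6G8.13 after 1432 bases. The genes are not read in a single direction: Y6G8.16 and Y6G8.13 are on the plus strand, Y6G8.15 and Y6G8.14 on the minus strand. None of them overlaps another annotated gene, so counting without regard to strand would not mix their reads with those of a partner.

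Beyond their counts, the 3 coding genes share the shape of their gene models. Y6G8.14, Y6G8.15 and Y6G8.16 are annotated as coding, each with 1 transcript, 2 exons and a first coding stretch of exactly 330 bases. The second coding stretch is 123 bases in Y6G8.15 and Y6G8.16 and 138 bases in Y6G8.14, so the first pair would encode 151 residues and Y6G8.14 156. The intron between them is short in all 3 genes, at 104 bases in Y6G8.16, 105 in Y6G8.15 and 85 in Y6G8.14. Of 19985 coding genes in the annotation, 2946 have a transcript with 2 coding exons, and 6 of those have a first one of 330 bases. The length was taken from the 3 coding Y6G8 genes, so they are among these 6 by construction. Other lengths were not counted, so whether 6 is few for a single length is not known. Y6G8.13 is annotated as a pseudogene with a single exon of 341 bases, close to the length of the first exons of the coding genes, which are 343 bases in Y6G8.16, 337 in Y6G8.15 and 334 in Y6G8.14. Whether the sequences resemble each other was not tested. The sources used here do not say how reads matching several genes were counted, so the split of reads between these genes is uncertain to that extent.

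**Figure D1:**
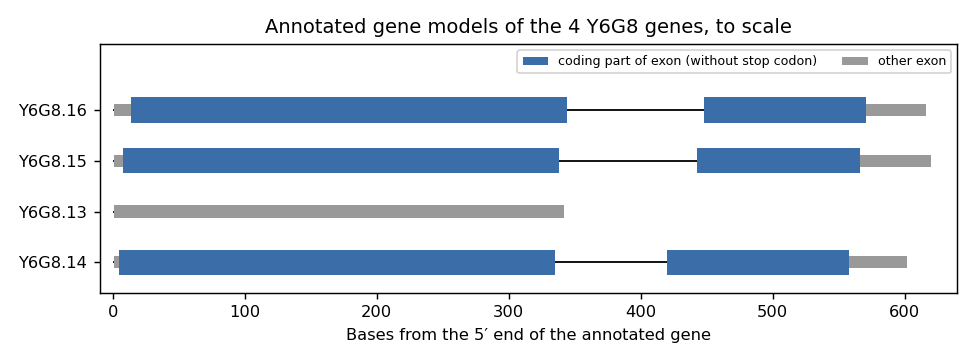
Gene models of the 4 Y6G8 genes in the annotation, each drawn from its own 5′ end in bases and to scale, with thick bars for coding exon parts, thin grey bars for other exon parts and lines for introns. The 3 coding genes share a first coding stretch of 330 bases, and the single exon of the pseudogene Y6G8.13 is of about the same length.

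In control worms transcripts of all 4 genes were counted in every library. Y6G8.16, a coding gene, had 146, 158 and 150 counts in the 3 control libraries, or 4.08 ± 0.38 CPM (counts scaled to library size by trimmed means; SD, n = 3 here and below). Y6G8.15, the coding gene next to srz-91, had 136, 123 and 155 counts, or 3.75 ± 0.82 CPM. Both levels were close, and their ranges over the libraries overlapped. The pseudogene Y6G8.13 had 43, 48 and 54 counts, or 1.31 ± 0.27 CPM. Y6G8.14, the last coding gene of the row, had 36, 22 and 28 counts, or 0.77 ± 0.20 CPM. Per kilobase of exon the control levels were 7.98 ± 0.74 CPM for Y6G8.16, 7.29 ± 1.59 for Y6G8.15, 3.84 ± 0.80 for Y6G8.13 and 1.5 ± 0.39 for Y6G8.14. On that scale the ranges of Y6G8.16 (7.41 to 8.81) and Y6G8.15 (5.96 to 9.05) overlapped, while Y6G8.13 (3.27 to 4.75) lay below both and Y6G8.14 (1.06 to 1.81) below Y6G8.13. The median of 14243 tested genes with a known exon length was 7.15 CPM per kilobase in the controls. Y6G8.15 and Y6G8.16 were thus near the middle of these tested genes as counted, and Y6G8.14 exceeded 23.9% of them. These places are uncertain, since 38.4% of coding genes with several annotated transcripts were at 0, against 7.07% with 1. The 4 Y6G8 genes have 1 transcript each, and genes counted only in part would make the median too low, which was not tested.

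The summed counts of these genes were 361, 351 and 387 in control replicates 1, 2 and 3, from libraries of 34561881 to 39492584 counts. The highest sum came from the smallest of these libraries, so the scaled sums were less even, at 9.37, 8.75 and 11.6 CPM. Y6G8.16 contributed 41.4 ± 3.24% of the sum, Y6G8.15 37.6 ± 2.51%, Y6G8.13 13.2 ± 1.11% and Y6G8.14 7.83 ± 1.92%. The coefficient of variation over the controls was 9.23% for Y6G8.16, 21.8% for Y6G8.15, 20.7% for Y6G8.13 and 26.0% for Y6G8.14. Genes with a like number of counts, within 1.5 times of the same mean, had median coefficients of 13.2, 13.5, 20.1 and 25.7% in the same order. Thus 3 of the genes varied about as much as their peers or less, and Y6G8.15 more.

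After y54g2a.18 RNAi almost nothing of the 4 genes was left. Y6G8.15 had 0 counts in each of the 3 libraries. Y6G8.16 had 4, 2 and 0 counts. Y6G8.13 and Y6G8.14 each had 2 counts in replicate 1 and 0 in replicates 2 and 3. Together the 4 genes had 1099 counts in the controls and 10 after RNAi, split as 8, 2 and 0 over the RNAi libraries, although these held 30103422 to 38313344 counts each. The sum was 9.91 ± 1.51 CPM in the controls and 0.091 ± 0.11 CPM after RNAi, so the groups did not overlap for the sum or for any of the 4 genes. Every RNAi library also lay below every control library for 14.6% of the 14290 tested genes. All 4 values above 0 in the RNAi libraries were even (4, 2, 2 and 2), and so were 13 of the 16 values above 0 of these genes in all libraries. Low counts were mostly even throughout the table, as if each mate of a pair had been counted, so that the 10 counts may stand for fewer fragments.

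**Figure D2:**
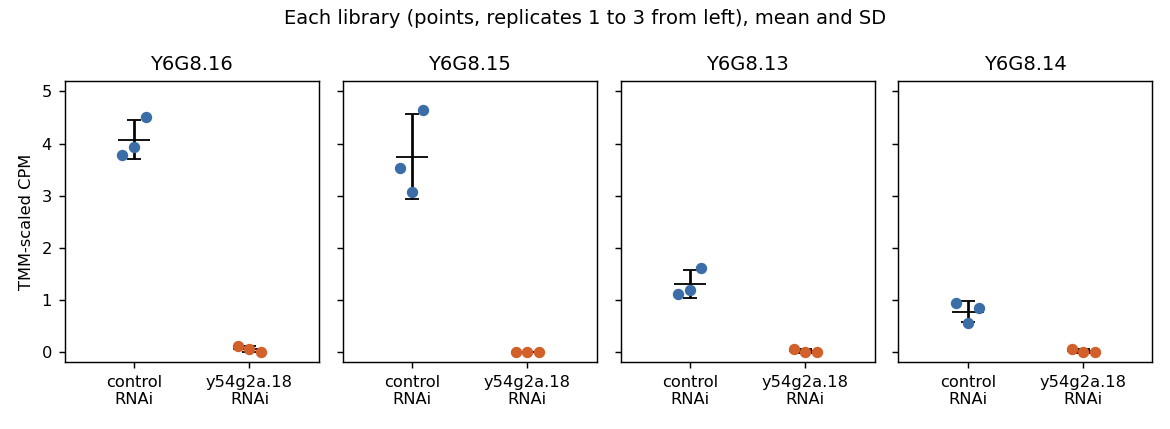
CPM of the 4 Y6G8 genes in each library (points), in genome order from left to right, with the mean and SD of each group of 3 (black). Control libraries lie between 0.55 and 4.65 CPM, and RNAi libraries at or near 0, with 0.109 CPM the highest.

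The size of the difference is limited by the few counts left. From pooled counts and pooled library sizes, Y6G8.16 was 71.8-fold lower after RNAi, with an exact 95% counting interval of 32.8 to 197. Y6G8.13 was 68.8-fold lower (interval 18.7 to 574) and Y6G8.14 40.8-fold lower (interval 10.96 to 343). These intervals overlap widely, and they cover counting error only. Y6G8.15, with 0 counts, has no point value. Set against a floor of 3 counts over the group it was 131-fold lower, and the lower end of its exact 95% counting interval was 106. Both values would be too high if each mate of a pair was counted. The floor is spread over fewer reads when a library is left out: the value at the floor was 85.9 without RNAi replicate 1, 84.7 without replicate 2 and 91.4 without replicate 3. The point values moved as well. Without RNAi replicate 1, which holds 8 of the 10 remaining counts, Y6G8.16 was 141-fold lower. Y6G8.13 and Y6G8.14 then had 0 counts and were 30.1- and 17.8-fold lower against the same floor. Without replicate 2 the values of Y6G8.13 and Y6G8.14 were 44.5 and 26.4, and without replicate 3 they were 48.0 and 28.5, with 50.1 for Y6G8.16. The RNAi libraries that remained necessarily stayed below the controls, since the groups did not overlap with all libraries in. Whole worms were sequenced, so fewer cells that express the genes and less RNA per cell cannot be told apart.

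The target of the RNAi itself was lowered far less. Y54G2A.18 had 386 ± 25.9 CPM in the controls and 136 ± 50.5 CPM after RNAi, a log2 fold change of -1.51 with a standard error of 0.25 (adjusted p = 0.0073, edgeR's quasi-likelihood test, with Benjamini-Hochberg adjustment over the 14290 genes that passed the filter on low counts). Of the single RNAi libraries, replicate 3 had the least target RNA at 90.2 CPM (2897 counts) and also 0 counts for the Y6G8 genes. Replicate 1 had the most target RNA at 190 CPM (6959 counts) and 8 counts for the Y6G8 genes, from a deeper library than replicate 3. Replicate 2, the deepest of the 3, had 128 CPM of target RNA (4799 counts) and 2 counts for the Y6G8 genes. With 3 libraries and 10 counts in all, no relation can be tested. Ribosomal RNA took 0.0965, 1.34 and 2.06% of RNAi replicates 1, 2 and 3 and 0.219 to 1.69% of the controls, so the shares of the groups overlapped. Among 27 tissue markers of the whole worm 20 were tested and 1 was called, against 8.98% of all tested genes, while 5 were at 0 in all libraries (tnt-4, ifb-2, rgef-1, lin-26 and bli-1). The called marker was the epidermal collagen gene dpy-7 (264 ± 30.7 and 71.3 ± 31.1 CPM, adjusted p = 0.0045). The missing calls do not show an unchanged tissue make-up, since some markers spread widely within a group. For unc-54 the controls had 229, 364 and 157 CPM, and the RNAi libraries 132, 327 and 650 CPM. Without a call, elt-2, ges-1 and msp-142 were higher and pgl-1 and glh-1 lower in every RNAi library than in every control. The groups overlapped for the other uncalled markers that were tested. The epidermal marker nhr-25 was not called (0.16 ± 0.18 and 0.35 ± 0.19 CPM, adjusted p = 0.47). It had only 14, 1 and 3 counts in the controls and 5, 19 and 13 after RNAi, so the missing call says little. With lin-26 and bli-1 at 0, dpy-7 was the only well counted epidermal marker. The 5 markers at 0 may not be silent, since coding genes with several transcripts were often at 0 in these counts. Whether these markers have several was not checked. Whether dpy-7 and the Y6G8 genes move together for a shared reason was not tested.

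The genes around the row were not among those chosen, and those with enough counts were tested in the fit over all genes. The choice still bears on them, since the row was picked as adjacent genes near 0 after RNAi. Between the Y6G8 genes, srz-91 had 0 counts in each control library and 10, 0 and 4 after RNAi. Its groups overlapped at 0, and it was too low to be tested. Y6G8.11, the pseudogene beside srz-91, was at 0 in all 6 libraries. The nearest genes before Y6G8.16 are the pseudogenes Y6G8.12, with 0 counts, and Y6G8.10, with 1 count in a control library, and then ztf-25, a zinc finger gene. ztf-25 had 9.22 ± 0.31 CPM in the controls and 11.8 ± 2.48 CPM after RNAi (log2 0.35, adjusted p = 0.34), so this nearest well expressed gene was not called. The nearest genes after Y6G8.14 were barely expressed. Y6G8.5 had 6, 6 and 6 counts in the controls and 2, 0 and 5 after RNAi. Y6G8.6 had 0, 2 and 4 and then 4, 8 and 0 counts. Y6G8.8 had 6, 2 and 0 and then 0, 0 and 0 counts. These last 3 genes were too low to be tested, and the groups overlapped for each of them.

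Of the 11 other genes of the Y6G8 series, counted by sequence name and including srz-45, ztf-25 and srz-91, 8 had any count and 2 passed the filter on low counts. In edgeR 0 of these 2 were called, against 8.98% of all 14290 tested genes, and 0 had an unadjusted p under 0.05; DESeq2 and limma-voom also called 0. Besides ztf-25 the tested gene was the pseudogene Y6G8.9, with 93, 92 and 56 counts in the controls and 48, 49 and 54 after RNAi, or 2.13 ± 0.39 and 1.43 ± 0.22 CPM (log2 -0.58, standard error 0.26, adjusted p = 0.22). Y6G8.2, a coding gene with several transcripts, was at 0 throughout, which may not mean that it is silent, since genes with several transcripts were often at 0 in this table.

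In a wider view, the 20 coding genes or pseudogenes on each side and the 2 between gave 42 neighbours, of which 18 could be tested. The median of their log2 fold changes was -0.16, against 0.02 over all tested genes. Of the 18, 2 were called lower and 0 higher, where 5.01% of all tested genes were called lower and 3.97% higher. Both lay after Y6G8.14, behind several weakly expressed genes, and none of the 10 tested genes before Y6G8.16 was called. They were fbxa-192, an F-box gene, and fbxa-191, a pseudogene beside it, both named after their values were seen. fbxa-192 fell from 53.6 ± 2.33 to 11.3 ± 3.32 CPM (log2 -2.25, standard error 0.23, adjusted p = 0.00095). fbxa-191 fell from 10.3 ± 0.31 to 1.97 ± 0.47 CPM (log2 -2.39, standard error 0.23, adjusted p = 0.00084). The next fbxa pseudogenes, fbxa-193 and fbxa-129, had log2 values of -0.77 and -0.67 and were not called in edgeR (adjusted p = 0.072 and 0.15), though DESeq2 called fbxa-193 (0.025) and edgeR without RNAi replicate 1 called fbxa-129 (0.026). Between the Y6G8 genes and this pair lay F57G4.1 (0.50 ± 0.11 and 0.97 ± 0.45 CPM) and F57G4.11 (1.00 ± 0.16 and 0.93 ± 0.51 CPM), neither of which was called (adjusted p = 0.22 and 0.90). Of all 174 tested fbxa genes in the table, 7 were called higher and 8 lower. Reads of similar fbxa genes may be split between them, so the values of this pair are uncertain to that extent.

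**Figure D3:**
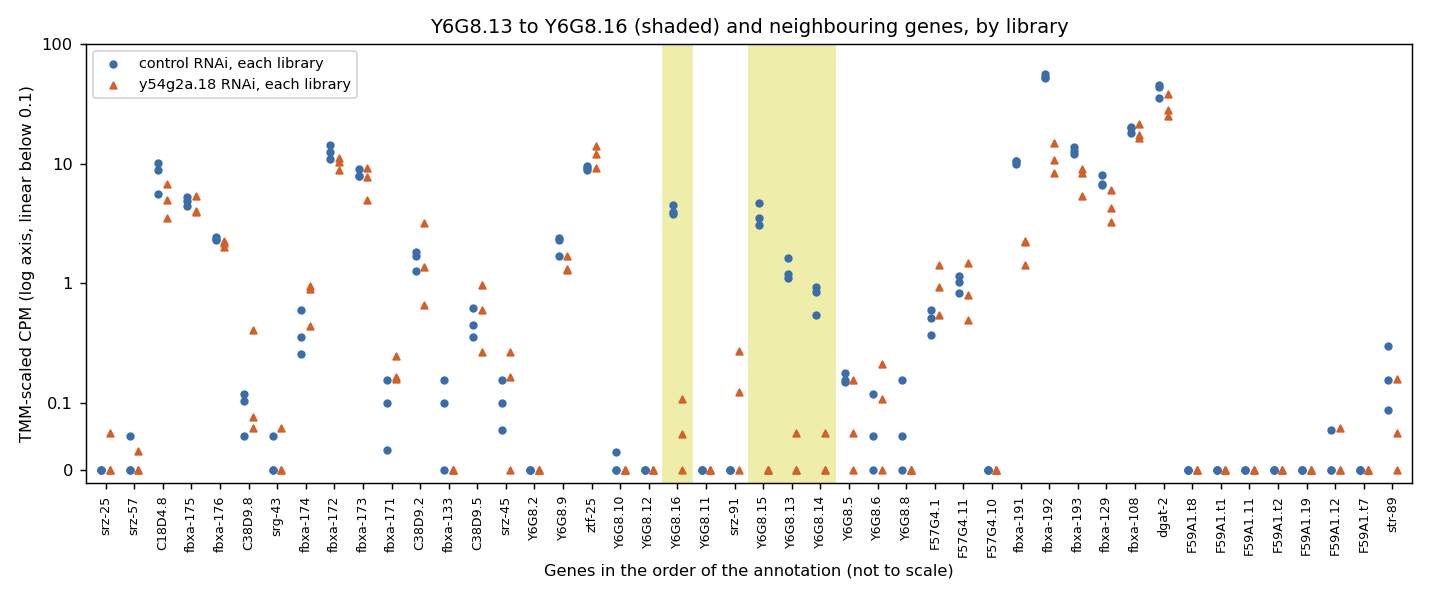
CPM in each library (log axis, linear below 0.1) of the 4 Y6G8 genes (shaded) and of their 42 neighbours in the order of the annotation, with circles for control libraries and triangles for y54g2a.18 RNAi libraries. Control and RNAi libraries are far apart at the 4 Y6G8 genes and at fbxa-191 and fbxa-192, and near each other or overlapping at ztf-25, F57G4.1 and F57G4.11.

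To place the 4 genes among all others, genes with at least 60 counts over the 3 controls were taken, and those at least 16-fold lower from pooled counts, with RNAi counts set to at least 3, were listed. Both bounds were chosen after the values were seen. The list held 29 of 12999 genes, or 0.223%, and the 4 Y6G8 genes were among them. It numbered 22 to 30 when any single library was left out. Of the 25 other genes 5 also had 0 counts in all RNAi libraries: C09G12.5 (248 control counts), F59B2.12 (245), fipr-18 (136), W08E12.4 (83) and str-150 (71). Of all 29 genes, 13 had another listed gene within 5 places in the order of coding genes and pseudogenes. The Y6G8 genes were the only 4 with 3 listed genes that near, which is the pattern they were picked for.

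**Figure D4:**
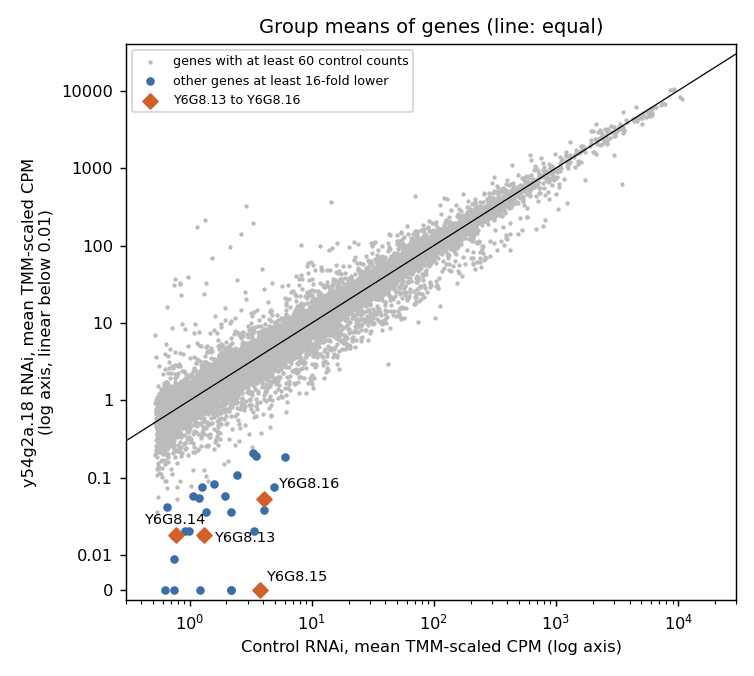
Mean CPM after y54g2a.18 RNAi against mean CPM in the controls for the 12999 genes with at least 60 control counts (grey; log axes, the vertical one linear below 0.01), with the line of equal values. Y6G8.13 to Y6G8.16 (diamonds) and the 25 other listed genes (blue) lie far below the line, and Y6G8.15 is at 0 after RNAi.

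The genes whose profile over the 6 libraries was most like that of the 4 genes summed were F49D11.4, sqv-4, R09E12.9, C02F4.4 and clec-207, with Pearson's r of log2(CPM + 0.5) between 0.998 and 0.999 (n = 6). The groups lie far apart for the sum, so r mostly measures how evenly a gene splits into the same groups, and 101 of the 14286 other tested genes reached 0.99. The sizes differed widely. clec-207, a C-type lectin gene on the same chromosome, had 80, 74 and 88 counts in the controls and 4, 0 and 0 after RNAi, the only one of the 5 that came near 0. F49D11.4 had 2.83 ± 0.20 and 0.49 ± 0.098 CPM, R09E12.9 had 48.98 ± 4.94 and 12.2 ± 0.86 CPM, and C02F4.4 had 59.6 ± 0.88 and 25.02 ± 1.36 CPM. sqv-4, which encodes UDP-glucose dehydrogenase, had 168 ± 3.55 and 124 ± 1.34 CPM, a log2 fold change of -0.44 whose call (adjusted p = 0.047) was lost in 7 alternatives, with adjusted p up to 0.249.

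The 3 other genes with 2 coding exons and a first one of 330 bases lie on other chromosomes and were hardly counted. F41B4.2 had 0 counts in the controls and 0, 2 and 2 after RNAi, C43E11.12 had 0 in the controls and 2, 1 and 0 after RNAi, and T27E9.6 had 8, 12 and 4 and then 6, 2 and 2. None was high enough to be tested, so the shared layout cannot be compared with the response beyond the Y6G8 genes.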

How the data were processed

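The authors deposited raw counts per gene, 1 table per experiment. The tools listed, with no role stated, are DESeq2 1.16.1, featureCounts 1.28.1, HISAT2 2.2.1 and FastQC 0.11.9, per the submitters' processing notes. Groups and replicate numbers come from the titles (1 of which spells the target y54g21.18), and columns were matched by library name. The 12 rows with dates for names were left out (up to 0.0247% of a library).

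Counts were analysed in R 4.3.3 with edgeR 4.0.16: filterByExpr (minimum count 10, total 15), TMM scaling, a quasi-likelihood fit with group as its only term on the 6 libraries, and calls at an adjusted p of 0.05. Standard errors are the absolute log2 fold change over the root of F. Of values from 1 to 20, 71.5% were even, and intervals are too narrow where both mates were counted. Of coding genes with several annotated transcripts 38.4% were at 0, against 7.07% with 1 transcript; the 4 Y6G8 genes have 1. Of the names 98.4% matched the annotation.

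The genes, lists and tests were chosen with earlier results of these data known. Genes to name were set by rule: the target, genes between or nearest to the 4, other Y6G8 genes, and the 5 most alike profiles; others were chosen after their values were seen. Within-group pairs of libraries correlated at 0.971 to 0.994 (log2 CPM), with chi-square per degree of freedom of 24.2 to 182, so none was counted as a duplicate. Relatives by protein sequence were not analysed here. The rpoa-49 table (43236 names, 418 counts) was not tested.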

Additional observations from a re-analysis of the deposited data

How the results depend on the processing

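The difference in summed CPM of the 4 Y6G8 genes, 9.82 as reported, ran from 9.04 to 10.4 when single libraries were left out. The genes were chosen by these values, so the range is a description. Other alternatives could change the difference only through the scaling of libraries (9.70 with total counts, 9.86 with DESeq2 size factors). The choice of test does not enter it, so they are no check on it. The call of Y54G2A.18 and those of fbxa-191 and fbxa-192 held in all alternatives, and 0 of the other Y6G8 genes were called in any; DESeq2 1.42.0 also called fbxa-193 (adjusted p = 0.025), and so was fbxa-129 without RNAi replicate 1 (0.026). Over all genes edgeR called 1283, 567 higher and 716 lower. DESeq2 called 1711 and limma-voom (limma 3.58.1) 1219. Leaving out single libraries gave 646 to 2097 in all, 224 to 912 higher and 422 to 1185 lower: 646, 664 and 667 without control replicate 1, 2 or 3 and 2097 without RNAi replicate 1. With the replicate number as a block 955 were called, 364 of them higher. Deviations from the group mean correlated at -0.0064, 0.049 and -0.50 between same-numbered libraries, so the numbers are not taken to pair them. No control library correlated best with the RNAi library of its own number. The highest correlations were 0.536 for control replicate 2 with RNAi replicate 3 and 0.524 for control replicate 3 with RNAi replicate 1. What these libraries share was not tested. The call of sqv-4 (adjusted p = 0.047) was lost in 7 alternatives, with adjusted p up to 0.249. No alternative was run for relatives by protein sequence, which were not analysed here. Depth limits the fold of each Y6G8 gene, since 10 counts remain, and srz-91 and most neighbours in the row lie too low to be tested.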

Other observations

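Among the 25 other genes that were at least 16-fold lower after y54g2a.18 RNAi, 7 were C-type lectin genes, whose products are thought to bind sugars, some of them in defence. The family was picked after the values were seen; 7 of its 126 genes with at least 60 control counts were listed, or 5.56%, against 0.223% of all such genes. clec-94, clec-95 and clec-99 lay within 5 places of each other on chromosome I, with 141, 109 and 134 counts over the controls and 2, 2 and 6 after RNAi, and clec-207 and clec-208 were close together on chromosome V, with 242 and 389 counts and then 4 and 21. clec-219 went from 544 to 8 counts and clec-124 from 74 to 4. The pairs srlf-17 and srlf-18 (214 and 376 counts, then 6 and 2) and scl-7 and scl-8 (150 and 371, then 4 and 22) were also close together. nhx-6, which encodes a sodium/proton exchanger, went from 671 to 19 counts. F45D11.15 is listed because of a single library, with 0, 110 and 0 counts in the controls. These genes were listed by their difference, so no test is given.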
